A study of Mus musculus with 8 samples.

Results

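Tbata, Ppp1r27, Isg20, Slc22a7, Cstb, Inmt, Aldh3b2, Amn and Neu2 are 9 of the 55487 genes counted in single thymic stromal cells, and they were listed together because earlier work on these same cells had found them high in cortical thymic epithelial cells (cTEC) rich in Tbata. The values that chose them were their co-expression within cTEC, their relation to the CD83 and CD40 surface tags and their level at 1 week against 16 weeks, so these measures are given here as descriptions and no test was made on them. Cells were called cTEC where Psmb11 and Prss16, a thymus-specific proteasome subunit and a thymus-specific serine protease, together made up at least 0.1% of the unique molecular identifiers (UMIs) of a cell, which took 2358 of 9953 cells. All 9 genes had UMIs in cTEC.

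The cells came from C57BL/6 mice and were profiled by CITE-seq, which counts in each cell both its mRNA and the DNA tags of antibodies bound to its surface (antibody-derived tags, ADT). The groups were mice aged 1 week and mice aged 16 weeks, for neither of which the labels name a treatment or an altered gene. CD45-positive and Ter119-positive cells were removed, 27 tagged reagents were bound to what remained, and EpCAM1-positive cells were sorted in excess over EpCAM1-negative ones. Thymi of several mice of an age went into 1 pool that was loaded on 2 wells, called replicates 1 and 2 here, so replicates differ by well and library only and say nothing of the spread between mice. The 4 mRNA libraries held 1430 to 4738 cells and 21281389 to 45480790 RNA UMIs.

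cTEC support the early steps of thymocyte development: they display peptides that decide which thymocytes are positively selected, and they secrete chemokines that draw in progenitors and carry on their membrane the Notch ligand that commits them. Their proteolytic set is unlike that of other cells, with the proteasome subunit encoded by Psmb11 and the lysosomal cathepsin encoded by Ctsl. CD83 on cTEC stabilises MHC class II at the surface by opposing its ubiquitin-driven removal, and CD40 is a receptor of the tumour necrosis factor family that TEC use to receive signals from lymphocytes.

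The 9 genes have unrelated products. Tbata encodes a protein first found in thymus, brain and testis that is made by thymic stroma (chromosome 10, 61171954 to 61188841, plus strand, GRCm38). Cstb encodes cystatin B, an inhibitor of cathepsins in the cytosol (chromosome 10, 78425669 to 78427622, plus strand). Isg20 encodes an RNA exonuclease that interferon induces (chromosome 7, 78913424 to 78920396, plus strand). Slc22a7 encodes an organic anion transporter (chromosome 17, 46432183 to 46438457, minus strand), and Ppp1r27 a regulatory subunit of protein phosphatase 1 (chromosome 11, 120549979 to 120551132, minus strand). Inmt encodes indolethylamine N-methyltransferase (chromosome 6, 55170626 to 55175043, minus strand) and Aldh3b2 a fatty aldehyde dehydrogenase (chromosome 19, 3972328 to 3981646, plus strand). Amn encodes amnionless, which carries the vitamin B12 receptor cubilin to the membrane (chromosome 12, 111271095 to 111276426, plus strand), and Neu2 a cytosolic sialidase (chromosome 1, 87509889 to 87597845, plus strand). Neu2 overlaps Ngef and Gm6153 on the opposite strand and Gm17181 on its own. Of the 940 stretches of 61 bases near the 3′ ends of Aldh3b2 transcripts, 74 also occur in Aldh3b1 or Aldh3b3, so a part of its reads could fit either gene.

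The tag sequences that stand for the surface proteins in the counts are those of the reagents for CD83 and CD40, shown because each link of the 9 genes to the cell surface was read through them.
CD83: tctcaggcttcctag
CD40: atttgtatgctggag

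Start regions are shown for Tbata, which names the state, and for Isg20 and Ppp1r27, the members with the motif below, as 300 bases from RefSeq (GRCm38.p6) on the strand of the gene, with the motif GACGC, a core described for the TEC factor Foxn1, in capitals on either strand (GCGTC on the reverse). Windows were matched for 6 of the 9 genes, and none was used for Slc22a7, Cstb and Aldh3b2.
Tbata, chr10:61171714-61172013, plus strand: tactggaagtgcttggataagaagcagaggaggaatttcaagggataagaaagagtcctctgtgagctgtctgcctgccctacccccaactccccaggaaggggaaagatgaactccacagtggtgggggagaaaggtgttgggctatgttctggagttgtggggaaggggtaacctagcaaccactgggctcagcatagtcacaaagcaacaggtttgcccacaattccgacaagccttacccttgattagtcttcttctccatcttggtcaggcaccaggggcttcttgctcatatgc
Isg20, chr7:78913515-78913814, plus strand: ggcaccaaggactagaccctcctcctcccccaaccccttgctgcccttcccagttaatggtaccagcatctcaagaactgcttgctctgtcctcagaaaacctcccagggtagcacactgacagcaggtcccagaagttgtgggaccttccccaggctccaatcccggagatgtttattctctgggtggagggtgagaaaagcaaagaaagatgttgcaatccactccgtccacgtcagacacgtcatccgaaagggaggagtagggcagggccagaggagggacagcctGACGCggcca
Ppp1r27, chr11:120551083-120551382, minus strand: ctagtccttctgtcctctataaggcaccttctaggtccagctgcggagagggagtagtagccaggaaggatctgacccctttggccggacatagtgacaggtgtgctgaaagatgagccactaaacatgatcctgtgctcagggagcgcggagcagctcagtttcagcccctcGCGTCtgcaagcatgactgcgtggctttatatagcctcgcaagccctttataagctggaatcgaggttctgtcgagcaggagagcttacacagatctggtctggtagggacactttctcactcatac
The motif stood once in the Ppp1r27 window and once in 1 of 3 windows of Isg20, and the windows of Tbata, Inmt, Amn and Neu2 held none, while 27.2% of all 32851 windows held it at least once. These matches describe the letters of the windows only.

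The cells that the limit called cTEC were numerous at 1 week and few at 16 weeks. They were 1237 of 1846 cells (67.0%) and 861 of 1430 cells (60.2%) in the 1-week libraries, and 69 of 1939 (3.56%) and 191 of 4738 (4.03%) in the 16-week libraries. All 7 cortical markers, Psmb11, Prss16, Ccl25, Ly75, Enpep, Ctsl and Dll4, were present in each library, with a summed level of 18800 to 23200 CPM (the UMIs of the genes, scaled as is usual for CPM to all UMIs of the cells summed over a library). Just inside the limit, at shares up to 0.12%, lay 90, 71, 6 and 16 cells of the 4 libraries, and just outside it, from 0.08%, lay 113, 100, 23 and 34. The cells were not all of cortical clusters, however. When all cells were clustered on their RNA, 74.9% of the 1-week cTEC fell in clusters that carried cortical markers, and the rest were mostly of unnamed clusters (11.5%) and of clusters with thymocyte (4.29%), mural (2.76%) or fibroblast (2.34%) markers. At 16 weeks only 24.2% fell in cortical clusters and 40.0% in clusters with intertypical TEC markers. The 6 marker genes (Ccl21a, Krt5, Krt14, Ly6a, Pdpn and Plet1) summed to 5997 and 4585 CPM in 16-week cTEC against 495.1 and 577.3 at 1 week. Cells in fibroblast-like clusters of the 1-week libraries themselves held a median of 0.0411% and 0.0371% of UMIs on Psmb11 and Prss16, against 0 at 16 weeks. Markers of red blood cells summed to 260 CPM in 1-week replicate 1 and to 20.3 to 34.4 in the other libraries. The comparison of the ages, the co-expression at 1 week and the tag groups at 1 week are therefore also given for cortical clusters alone or for a limit of 0.5%, and the other values are not.

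Tbata was abundant in cTEC of every library. Its level was 7021 and 6433 CPM in the 1-week libraries and 5255 and 6934 in the 16-week libraries. The 16-week replicate 2 lay between the 1-week libraries, so the ages overlapped. After each cell was thinned to 5000 UMIs, Tbata had a UMI in 98.8% and 97.0% of 1-week cTEC and in 86.0% and 96.4% of 16-week cTEC. In fibroblast-like cells of the same libraries, which should lack it, the share was 88.2% and 78.3% at 1 week and 28.9% and 33.4% at 16 weeks, so a UMI of Tbata in a 1-week cell was no sign that the cell made it, whereas its level was 427 and 378 CPM there, far under that of cTEC. The median fibroblast-like cell held 22436.5 and 21388 UMIs at 1 week and the median cTEC 6506 and 6164.

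Cstb had 7348 and 6917 CPM in 1-week cTEC and 4255 and 5713 in 16-week cTEC. Both 1-week libraries were above both 16-week libraries, by 0.52 on the log2 scale between the means. Cstb was also counted in 1-week fibroblast-like cells at 625 and 590 CPM, and 85.1% of all Cstb UMIs of the series fell in cTEC.

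Isg20 had 1188 and 1038 CPM at 1 week and 390 and 671 at 16 weeks. The ages did not overlap, and the mean was 2.10-fold higher at 1 week. It had a UMI in 79.6% and 79.4% of thinned 1-week cTEC against 22.9% and 24.5% of thinned fibroblast-like cells, and in 54.0% and 61.6% of 16-week cTEC against 8.01% and 9.32%.

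Ppp1r27 showed the largest difference between the ages among the 9 genes. It had 284 and 288 CPM at 1 week and 72.1 and 123 at 16 weeks, a mean that was 2.93-fold higher at 1 week without overlap. Slc22a7 had 234 and 229 CPM at 1 week and 118 and 133 at 16 weeks, also without overlap and 1.84-fold higher.

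The other 4 genes were sparse. Inmt had 54.5 and 51.3 CPM in 1-week cTEC and 16.2 and 42.1 in 16-week cTEC. The libraries of the ages did not overlap, but the 95% Poisson intervals of the nearest ones did (47.8 to 55.1 and 35.2 to 50.04). Without cells of 3 or more thymocyte-marker UMIs the log2 difference was -0.20 in place of 0.86. That rule is a raw count, which deep cells reach more readily. It took out 466 and 274 cTEC of the 1-week libraries and 17 and 38 of the 16-week libraries. Neu2 had 23.8 and 21.2 against 10.5 and 20.2, where the lower 1-week library and the higher 16-week library were within counting error of each other (95% Poisson intervals of 18.9 to 23.6 and 15.5 to 25.95). Amn had 26.2 and 14.9 against 8.10 and 29.4, and Aldh3b2 14.4 and 13.4 against 5.67 and 18.0, so the ages overlapped for both. The 16-week replicate 1 held only 7 UMIs of Aldh3b2, 10 of Amn, 13 of Neu2 and 20 of Inmt. Poisson intervals cover counting error only.

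By the rule that both 1-week libraries lie above both 16-week libraries and that the mean is at least 2-fold higher, 2 of the 9 genes (Ppp1r27 and Isg20) were higher at 1 week, while 18.7% of all 29701 genes with a UMI were. A share of 2 in 9 is near that background. Without 16-week replicate 2 the count was 6 of 9, against 27.6% of all genes, and it was 1 without 1-week replicate 1 (29.5% of all genes) or without 16-week replicate 1 (20.8%). Among genes with 10 UMIs or more the background was 13.7%. The median log2 difference of the 9 genes was 0.55, from 0.13 for Amn to 1.55 for Ppp1r27, and no gene was lower at 1 week on the mean. Of all genes, 6.87% were lower at 1 week by the same rule. The mean ± SD over n = 2 libraries was 6727 ± 416 against 6094 ± 1188 for Tbata, 286 ± 2.98 against 97.6 ± 36.1 for Ppp1r27 and 1113 ± 106 against 530 ± 199 for Isg20.

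The difference between the ages moved with the cells that were compared. With the limit at 0.5%, none of the 9 was called, against 16.1% of all genes, and Tbata was at 10710 and 9834 CPM at 1 week and 10160 and 11150 at 16 weeks. At that limit the ages overlapped for Tbata and Amn, and the other members had both 1-week libraries above both 16-week libraries. The share of all genes without overlap was not taken, so this describes the members only. Ppp1r27 was at 386 and 379 CPM against 187 and 224, and Isg20 at 1826 and 1649 against 802 and 1188. In cortical clusters alone, none was called either, against 27% of all genes. Tbata was at 7746 and 7163 CPM there at 1 week and at 11370 and 12180 at 16 weeks. It was thus higher at 16 weeks without overlap. The log2 difference was also negative for Slc22a7, Cstb, Aldh3b2, Amn and Neu2, and positive for Ppp1r27, Isg20 and Inmt. That class gives no like comparison between the ages, however. The clustering had used these genes, and the 3 clusters with Tbata among their leading genes took all 16-week cells but 1 and 2, whereas the other 2 clusters held 348 and 262 and 170 and 143 of the 1-week cells. The larger of these had Hbb-bs, Hba-a1 and Hba-a2, genes of red blood cells, and 1 cortical marker, Ly75, among its 10 leading genes. With 14 cells, 16-week replicate 1 was also under the 20 asked of other groups. The share of cTEC in the sorted mixture was thus higher at 1 week. Tbata relative to all UMIs of cTEC overlapped between the ages at both limits and was higher at 16 weeks in cortical clusters. The word neonatal was therefore not borne out by the level of Tbata in cTEC. The number of cTEC, their makeup and their depth per cell differed with age, and their part in these values was not tested.

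**Figure D1:**
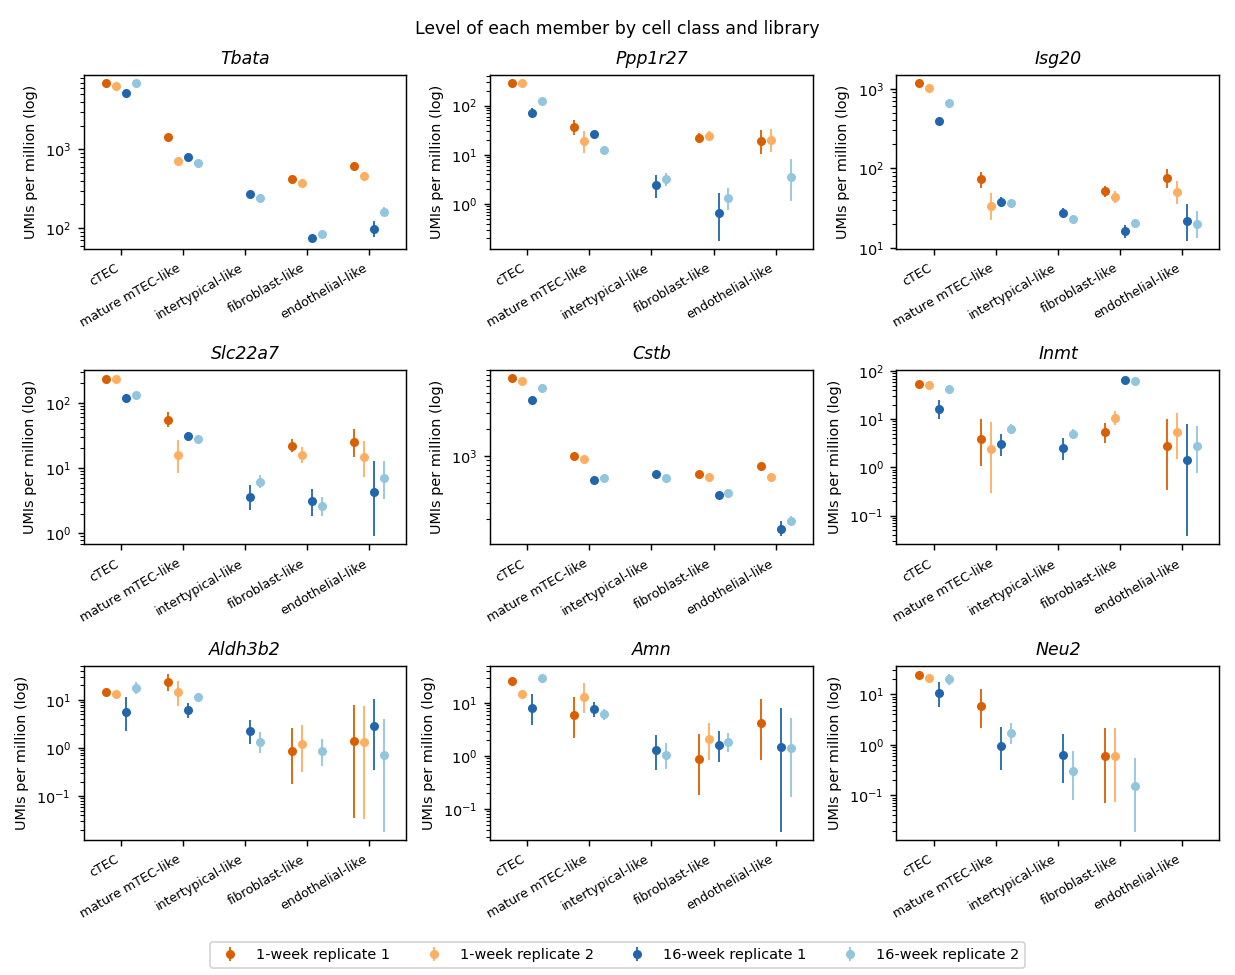
Level of each of the 9 genes, in CPM on a log axis, in cTEC by the limit of 0.1% and in 4 other classes of cells below that limit, with 1 point per library and bars for the 95% Poisson interval of the count. Classes with under 20 cells in a library, or with no UMI of the gene, have no point. Tbata, Ppp1r27, Isg20, Slc22a7, Cstb and Neu2 were highest in cTEC in every library, Inmt reached 65.4 and 62.3 in 16-week fibroblast-like cells, and Aldh3b2 reached 23.8 and 14.4 in 1-week mature medullary TEC-like cells.

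Outside cTEC, the genes parted. Inmt was at 65.4 and 62.3 CPM in the fibroblast-like cells of 16-week libraries, above the 16.2 and 42.1 of 16-week cTEC, and had a UMI in 14.3% and 11.9% of those cells after thinning. At 1 week the same class had 5.32 and 10.7 CPM, and only 57.8% of all Inmt UMIs of the series fell in cTEC. Aldh3b2 in mature medullary TEC-like cells was at 23.8 and 14.4 CPM at 1 week, no lower than in cTEC, from 24 and 12 UMIs in 30 and 24 cells. Tbata in mature medullary TEC-like cells averaged 1078 CPM at 1 week and 731 at 16 weeks, and 258 in the intertypical-like cells of 16 weeks. Neu2 and Isg20 were closest to cTEC, with 93.2% of their UMIs in these cells. The UMI share in cTEC was in part set by the 1-week libraries, where most cells were cTEC.

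Within 1-week cTEC, 5 of the 9 genes went together cell by cell, while the 4 sparse genes had low coefficients. Counts of each cell were thinned to 5000 UMIs, which left 755 and 504 cells in replicates 1 and 2, and Spearman's coefficient was taken across cells. Tbata and Isg20 had coefficients of 0.80 and 0.77, Tbata and Cstb of 0.76 and 0.78, and Isg20 and Cstb of 0.74 in both libraries. Slc22a7 was at 0.50 and 0.51 with Tbata and at 0.47 and 0.53 with Cstb. Ppp1r27 was at 0.37 and 0.40 with Tbata, and Slc22a7 with Ppp1r27 was the weakest pair of the 5, at 0.24 and 0.26. The cells of a library share their preparation, so these coefficients are descriptions and carry no p-value.

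The 10 pairs among these 5 genes had a median of 0.45 and 0.50. All pairs among the 914 and 902 genes seen in at least 50% of the thinned cells had a median of 0.032 and 0.029, and 4.50% and 4.64% of those pairs reached the weakest pair of the 5. Neu2, Amn, Inmt and Aldh3b2 were seen in 3.57% to 12.3% of thinned cells, and the 6 pairs among them had a median of 0.039 and 0.047, with Amn and Aldh3b2 at 0.20 in replicate 2 and Inmt and Aldh3b2 at -0.055 there. All genes seen in 3% to 13% of cells had a median of -0.00093 and -0.0018 over their pairs. Weak coefficients in counts this sparse are no finding. Over all 36 pairs the median was 0.151 and 0.143.

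**Figure D2:**
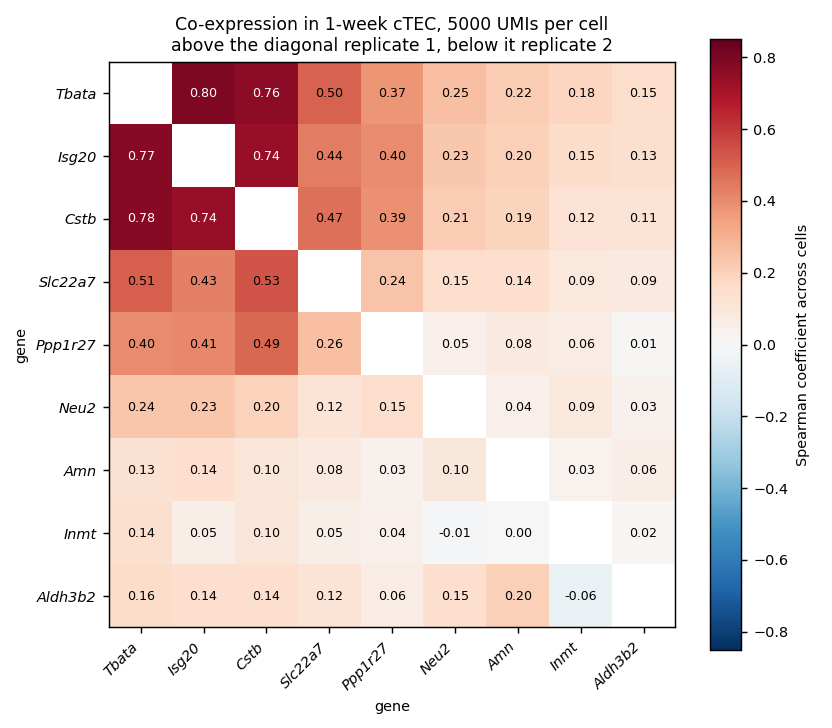
Spearman coefficients between the 9 genes across 1-week cTEC thinned to 5000 UMIs, with replicate 1 (755 cells) above the diagonal and replicate 2 (504 cells) below it. Tbata, Isg20 and Cstb form a block of 0.74 to 0.80, Slc22a7 and Ppp1r27 reach 0.24 to 0.53 with the other genes seen in most cells, and the 4 sparse genes stay at 0.25 or less.

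Against the sum of the other 8 genes, the coefficients were 0.80 and 0.80 for Tbata, 0.82 and 0.79 for Isg20, 0.78 and 0.81 for Cstb, 0.51 and 0.55 for Slc22a7 and 0.41 and 0.48 for Ppp1r27. Neu2 was at 0.24 and 0.23, Amn at 0.21 and 0.12, Inmt at 0.16 and 0.12 and Aldh3b2 at 0.14 and 0.15. In cortical clusters alone (650 and 426 cells), Tbata was at 0.80 and 0.80, Isg20 at 0.82 and 0.80 and Cstb at 0.78 and 0.80, so the relation was as strong without the cells of other clusters. Without cells of 3 or more thymocyte-marker UMIs it was lower, with means over both libraries of 0.69 for Tbata, 0.69 for Isg20 and 0.70 for Cstb. That rule took out 466 of 1237 and 274 of 861 1-week cTEC. It is a raw count that deep cells reach more readily, so depth and thymocyte RNA were not told apart. At 16 weeks, where 50 and 138 cells had 5000 UMIs, Tbata was at 0.62 and 0.66, Cstb at 0.67 and 0.64 and Isg20 at 0.33 and 0.64. The relation among the abundant genes was thus also present in the older cells, although it was weaker there for Tbata, Cstb and Isg20.

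Levels in terciles of cTEC (3 groups of like size) show how wide the range was. When cells of a library were ranked by the summed share of the other 8 genes, Tbata had 1315 and 967 CPM in the lowest tercile, 2384 and 2631 in the middle tercile and 10480 and 9561 in the highest tercile of the 1-week libraries. The highest tercile was 7.97-fold and 9.89-fold above the lowest, and most of that distance lay between the middle and the highest tercile. Isg20 went from 169 and 147 to 1811 and 1586, a ratio of 10.7 and 10.8. Neu2, weakly correlated by cell, had 2.701 and 2.50 CPM in the lowest tercile and 36.9 and 33.6 in the highest, a ratio of 13.7 and 13.5. Inmt went from 6.86 and 11.5 to 84.7 and 77.7, Amn from 5.20 and 3.43 to 39.8 and 22.8, and Aldh3b2 from 2.49 and 2.51 to 21.9 and 20.9. Cstb had the narrowest range, at 3.93-fold and 4.61-fold. At 16 weeks the ratio for Tbata was 7.04 and 7.28 with 23 and 63 cells a tercile.

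Cells of the highest tercile, ranked on all 9 genes together, differed in other ways. They held a median of 30777.5 and 30310 UMIs, against 5623 and 5325 in the lowest tercile, and their mitochondrial RNA made up a median of 1.39% and 1.42% of UMIs against 7.57% and 8.14%. In the highest tercile, 99.5% and 98.3% of cells were of cortical clusters, against 55.3% and 47.0% in the lowest. Thymocyte markers summed to 545 and 421 CPM in the highest tercile and to 747 and 1069 in the lowest. The middle tercile held a median of 4713 UMIs in both libraries and 7.66% and 9.11% mitochondrial RNA, with thymocyte markers at 352 and 296 CPM. In depth and mitochondrial share only the highest tercile thus stood apart. The part of depth, mitochondrial share and cell makeup was not tested beyond the values for cortical clusters and for thinned cells. The highest tercile also held 93 and 83 cells with under 0.5% mitochondrial RNA. Leaving out such cells left the coefficient of Tbata with the other genes at 0.80 and 0.79.

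CD83 is a surface protein that the study used to set apart perinatal cTEC. Cells of the highest tercile by the CD83 share of their ADT counts (412 and 287 cells) were compared in the 1-week libraries with cells that had no CD83 count (488 and 352 cells). Counts of this tag were low. Cells without it made up 39.45% and 40.88% of 1-week cTEC, and the highest tercile held a median of 6 and 8 counts a cell. Tbata was at 2184 and 2409 CPM without CD83 and at 9575 and 8910 with high CD83, a difference of 2.13 and 1.89 on the log2 scale. Isg20 went from 392 and 358 to 1531 and 1407, and Cstb from 3871 and 3430 to 9165 and 8541. Ppp1r27 had the least difference, with 153 and 171 CPM without the tag and 362 and 355 with it.

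The mean log2 difference of each sparse gene was above that of Tbata, although Neu2 was below Tbata and Isg20 in replicate 1. Inmt was at 9.98 and 13.9 CPM (38 and 33 UMIs) without CD83 and at 91.0 and 90.4 (881 and 646 UMIs) with it, which is 9.11-fold and 6.49-fold. Aldh3b2 went from 2.36 and 5.49 to 21.1 and 21.5, Amn from 6.57 and 5.49 to 42.1 and 24.5 and Neu2 from 9.19 and 5.49 to 34.8 and 33.4. All 9 genes were at least 2-fold higher in both 1-week libraries, where 4.66% of 22594 genes were and 16.3% were 2-fold lower, and their median log2 difference was 2.01 against -0.25 for all genes. Since the genes had been listed for this relation, the count describes them and supports nothing further. Cd83 mRNA was higher by 1.95 and 1.87 on the log2 scale in cells with high CD83, where Tbata was higher by 2.13 and 1.89. Cd83 was also higher by 1.63 and 1.58 with high CD40, so its rise was not particular to the CD83 tag.

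CD40 gave a like picture for 8 genes. Tbata was at 2475 and 2201 CPM in the lowest tercile by CD40 share and at 9885 and 9275 in the highest, and Inmt at 17.7 and 9.38 against 92.8 and 87.9. Aldh3b2 was 6.35-fold and 9.45-fold higher, Amn 6.36-fold and 8.90-fold and Neu2 4.58-fold and 8.36-fold. Ppp1r27 was the exception, with 184 and 258 CPM in the lowest tercile and 330 and 308 in the highest, which is 1.79-fold and 1.19-fold. By the 2-fold rule 8 of 9 genes were higher, against 5.84% of 22747 genes, with 8.71% 2-fold lower, and the median log2 difference of the 9 was 2.04 against -0.15 for all genes.

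The groups by tag were not alike in depth or makeup. Cells without CD83 held a median of 3909.5 and 3634 RNA UMIs and 1003.5 and 1070 ADT counts, and cells with high CD83 12161 and 14618 RNA UMIs and 5385 and 7314 ADT counts, so a count of 0 also marked shallow cells. With each cell thinned to 5000 UMIs, 7 genes were called for CD83, against 4.12% of all genes, and 7 for CD40, against 5.75%. The mean log2 difference for CD83 was then 1.61 for Tbata, 1.99 for Inmt and 1.58 for Aldh3b2, lower than without thinning, and 2.55 for Amn and 2.22 for Neu2. Of the cells without CD83, 58.0% and 54.0% were of cortical clusters, against 91.5% and 88.5% of those with high CD83. Both CD40 groups were more alike in that share, with 76.2% and 76.0% of cells of cortical clusters in the lowest tercile and 74.5% and 70.0% in the highest. They also differed in depth. The lowest tercile held a median of 5357 and 4810 RNA UMIs and 2788.5 and 2973 ADT counts. The highest held 8687.5 and 9906 RNA UMIs and 5733 and 7215 ADT counts. Thymocyte markers went with both tags, at 248 and 235 CPM without CD83 and 788 and 721 with it, and at 139 and 234 in low CD40 and 900.0 and 755 in high CD40. Without cells of 3 or more thymocyte-marker UMIs, 7 genes were called for CD83 and 8 for CD40, against 3.32% and 5.29% of all genes. The mean log2 difference for CD83 was then lower for every member. It was 1.63 in place of 2.94 for Inmt, 1.59 in place of 2.42 for Amn and 1.55 in place of 2.01 for Tbata. For CD40 it was lower for Inmt (2.51 in place of 2.81), Aldh3b2, Amn and Neu2. It was higher for the other members, with Tbata at 2.19 in place of 2.04. Depth and thymocyte RNA were not told apart here either.

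At a limit of 0.5% on Psmb11 and Prss16, which keeps cells with most of both genes, the mean difference by tag was smaller for each of the 9 genes. Tbata was then at 9349 and 7721 CPM without or with least CD83 and at 11040 and 10490 with most, a log2 difference of 0.24 and 0.44, and Isg20 and Cstb differed by 0.06 and 0.22 and by 0.14 and 0.16. Inmt differed by 1.67 and 1.47 and Amn by 1.15 and 1.71, less than at 0.1% on the mean (1.57 against 2.94 and 1.43 against 2.42), and these were the 2 genes called, against 3.97% of all genes. Aldh3b2 averaged 1.73 ± 1.21 (SD, n = 2 libraries) and was not called. Neu2 differed by 0.73 and 1.06, Slc22a7 by 0.50 and 0.73 and Ppp1r27 by 0.79 and 0.08. Abundant and sparse members were thus not cleanly set apart. For CD40 at this limit, Inmt alone was called, at 24.9 and 45.3 against 138 and 120 CPM, where 5.14% of all genes were. The median of the 9 log2 differences was 0.61 for CD83 and 0.40 for CD40.

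**Figure D3:**
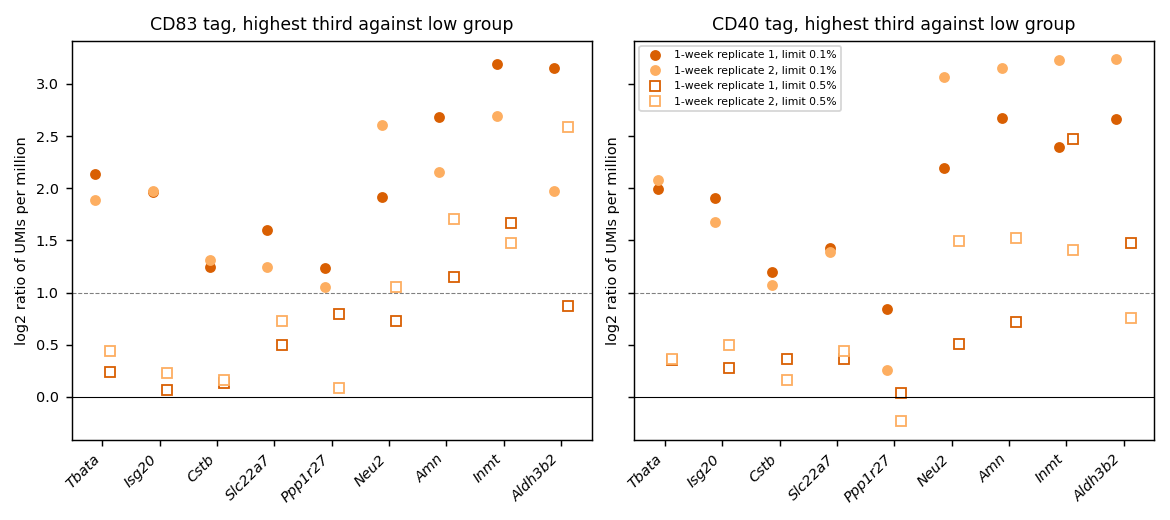
Log2 ratio of CPM between 1-week cTEC high and low in the CD83 tag (left) and the CD40 tag (right), for each of the 9 genes and each library, at the limit of 0.1% (filled circles) and of 0.5% (open squares). The dashed line marks a 2-fold difference. At 0.1% all points but those of Ppp1r27 for CD40 lie above it, and at 0.5% Tbata, Isg20 and Cstb lie between 0.06 and 0.50 while Inmt lies between 1.41 and 2.47.

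In cortical clusters alone, 6 genes were called for CD83 and 8 for CD40, against 6.01% and 6.39% of all genes. At 16 weeks the groups by CD83 held 33 and 88 cells without the tag and 23 and 63 with most, and 6 genes were at least 2-fold higher in both libraries (Ppp1r27, Isg20, Slc22a7, Cstb, Amn and Neu2), where 3.27% of 15699 genes were. Tbata averaged a log2 difference of 1.04 ± 0.23 (SD, n = 2 libraries) there. The groups without the tag held only 1 and 2 UMIs of Amn, 3 and 9 of Neu2 and 5 and 30 of Ppp1r27. Of their cells 15.2% and 13.6% were of cortical clusters, against 34.8% and 38.1% of the groups with most. The latter held a median of 3 and 4 CD83 counts a cell. For CD40 at 16 weeks, 3 of the 9 genes were called where 5.71% of all genes were, namely Tbata at 1.25 ± 0.22, Inmt at 2.53 ± 0.24 and Aldh3b2, which was called against a low group with 0 UMIs in replicate 1 (3 UMIs in the high group). Ppp1r27 averaged -0.61 ± 0.43.

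Seen from the other side, CD83 had the largest positive difference of all tags between terciles of cTEC by the summed 9 genes in both 1-week libraries. It made up 0.0304% and 0.0287% of ADT counts in the lowest tercile of the 1-week libraries and 0.0851% and 0.0842% in the highest, a log2 difference of 1.49 and 1.55. At 16 weeks it differed by 0.99 and 1.51, and in replicate 1 CD274 differed more. CD270, also called HVEM, differed by 1.35 and 1.16 at 1 week and by -0.07 and 0.48 at 16 weeks. CD274, the ligand of the inhibitory receptor PD-1, differed by 1.30 and 1.11 at 1 week and by 1.18 and 1.07 at 16 weeks. CD40 differed by 0.63 and 0.57 at 1 week and MHCII by 0.41 and 0.51. Ly6G/Ly6C, CD31, the lectin UEA1 that marks medullary TEC, CD80, CD49a and Sca1 had a smaller share in the highest tercile of both 1-week libraries, with log2 differences from -2.77 to -1.05. CD31 marks endothelial cells, and the lowest tercile held fewer cells of cortical clusters, as given above. Ly6D had no count in these cells.

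**Figure D4:**
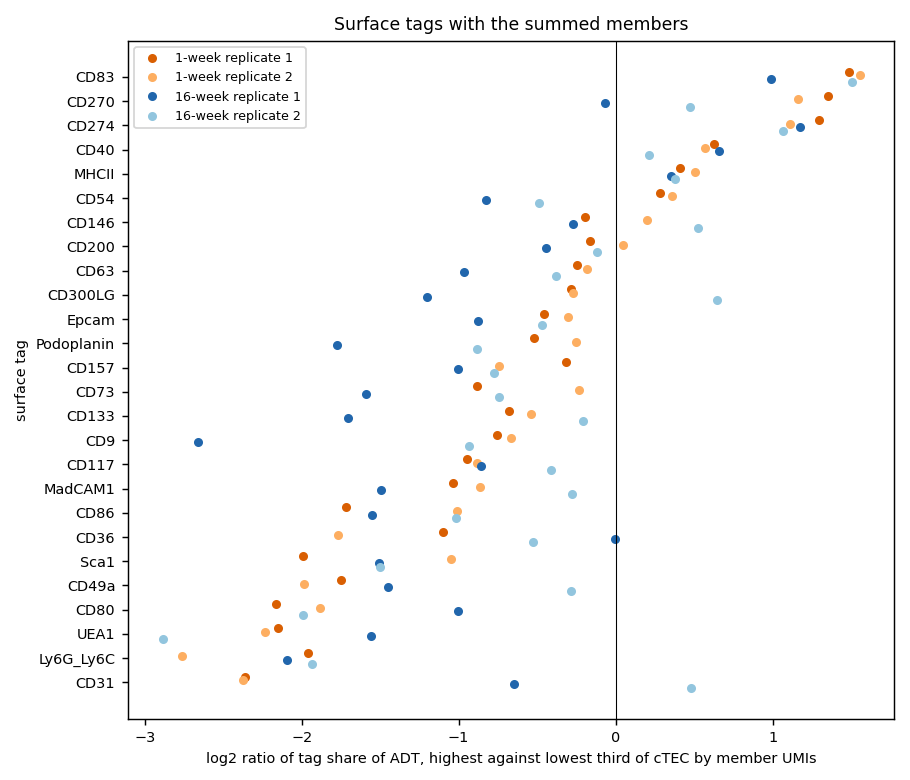
Log2 ratio of the share of ADT counts held by each surface tag between the highest and the lowest tercile of cTEC, ranked by the summed share of the 9 genes, with 1 point per library. CD83, CD270 and CD274 were above 1 in both 1-week libraries, and CD31, Ly6G/Ly6C and UEA1 were at -1.96 or lower there.

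Among 8641 genes seen in at least 5% of thinned cells of both 1-week libraries, 27 (0.312%) had a coefficient of 0.5 or more with the summed 9 genes in both, and 356 (4.12%) reached 0.2. The sum is mostly Tbata and Cstb. Ccl25, the chemokine that draws progenitors into the thymus, was most like it, with 0.86 and 0.83. Keratins of simple epithelia followed, with Krt18 at 0.80 and 0.83 and Krt8 at 0.77 and 0.80. The lysosomal protease gene Ctsl was at 0.80 and 0.76 and the redox gene Txn1 at 0.78 and 0.78. Proteasome genes stood among the 15 most alike, namely Psmb10 at 0.70 and 0.72, Psmb4 at 0.69 and 0.69, Psma7 at 0.63 and 0.64, and Psmb11, which the limit used, at 0.62 and 0.66. The ferritin genes Fth1 and Ftl1 were at 0.69 and 0.69 and at 0.63 and 0.62. Fam213b (0.72 and 0.68), Crip3 (0.65 and 0.65), Ndufa11 (0.62 and 0.65) and Krt17 (0.61 and 0.61) made up the rest. The 5 genes most opposed to the sum were all mitochondrial, with mt-Rnr2 at -0.52 and -0.47, mt-Co2 at -0.50 and -0.47, mt-Atp6 at -0.49 and -0.47, mt-Co3 at -0.45 and -0.47 and mt-Rnr1 at -0.47 and -0.45.

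Of 22 genes of cTEC function, 20 were seen often enough and 12 reached 0.2 with the summed 9 genes in both libraries, with a median of 0.25 against -0.016 for all genes. Besides Ccl25, Ctsl, Psmb11 and Prss16 they were Cd83 (0.52 and 0.53), Cxcl12 (0.46 and 0.47), H2-Aa (0.45 and 0.46), Cd74 (0.45 and 0.44), Pax1 (0.39 and 0.45), Foxn1 (0.24 and 0.24), H2-Ab1 (0.23 and 0.27) and Il7 (0.21 and 0.23). Foxn1 encodes the transcription factor on which TEC depend. None of this list reached -0.2. The list holds Psmb11 and Prss16, which the limit used, and Cd83, whose surface tag was among the measures that chose the 9 genes. The genes behind the median of -0.016 were not matched to the list for detection. By the 2-fold rules 7 of the 22 were higher and 0 lower with CD83, 7 were higher and 1 lower with CD40, and 1 was higher and 2 lower at 1 week. Over all genes, 4.66% were higher with CD83, 5.84% higher and 8.71% lower with CD40, and 18.7% higher and 6.87% lower at 1 week.

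In the families of single members described here, at most 2 genes of a list reached 0.2 with the summed 9 genes, where 4.12% of all genes did. Counts this small describe the lists only. Of 20 interferon-stimulated genes, 19 were seen often enough, and Bst2 (0.29 and 0.20) and Ifi35 (0.22 and 0.24) reached 0.2, while Isg15 was at 0.10 and 0.14 and Oasl2 at -0.004 and -0.036. The median of this list was -0.0079. With CD83, 0 of the 20 were higher and 4 lower, with CD40 0 and 2, and at 1 week 2 and 0, where 16.3% of all genes were lower with CD83, 8.71% lower with CD40 and 18.7% higher at 1 week. Among 12 of 18 cathepsin and cystatin genes, Ctsl was the exception with a coefficient over 0.2, Cst6 was at 0.26 and 0.18, and Ctsz was at -0.21 and -0.23. Of these 18 genes, 1 was higher and 7 lower with CD83, 2 higher and 3 lower with CD40, and 1 higher and 1 lower at 1 week. Of 10 of 18 aldehyde dehydrogenases, Aldh1l1 reached 0.31 and 0.25, and Aldh2 was at -0.17 and -0.072. Of these 18, 1 was higher and 0 lower with CD83, 0 higher and 5 lower with CD40, and 1 higher and 2 lower at 1 week, and the shares over all genes are those just given. None of 10 genes of protein phosphatase 1 (of 11) passed 0.2 in size, with Ppp1r2 at 0.18 and 0.14, nor did 3 of 13 organic anion transporters or the sialidase Neu1, at 0.010 and -0.025. The 4 partners of amnionless, Cubn among them, were each seen in under 5% of cells.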

How the data were processed

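Stromal cells from thymi of mice aged 1 week and 16 weeks gave 4 mRNA and 4 ADT libraries. The authors aligned reads to mm10 with STARsolo 2.7.9a and Ensembl gene models, kept cells of at least 2000 UMIs and deposited whole-number counts per gene or tag and cell, not normalised. The labels name version 2 of the 3′ kit and the methods version 3, which was not settled. Of 55487 gene rows, 55141 matched a symbol in GENCODE M21. Library and age were read from cell names. In all, 15 barcodes were found in more than 1 library (35 cells, 16 of them cTEC).

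The limit was the share of Psmb11 and Prss16. Counts were summed per library over cTEC and divided by the cells' summed UMIs (Python 3.11.15, numpy 2.4.6, scipy 1.17.1). A low-tag group was the lowest tercile by share of ADT, or all cells at 0 where these were more. Cell classes and tag groups needed 20 cells, which the age comparison in cortical clusters did not meet (14 cells in 16-week replicate 1). Clusters came from 30 principal components of 2000 variable genes, 15 neighbours and leidenalg 0.10.2, and a name needed 3 markers, each in 10% of cells at 25% or more of its highest cluster. Doublets were left in and removed as an alternative with scanpy 1.11.5, by the top scores, 253 cells, since its automatic limit marked 12. Each age was 1 pool, so no test was made and no p-value is given. The genes named beside the 9 were the 15 most alike, the 5 most opposed, and of each list the 4 of highest level and those past 0.2 in size. Members, lists and tests were chosen with earlier results of these data known. Fold and correlation steps were tested on simulated data. TMM factors came from edgeR 4.0.16. The result of 1 further gene list is not reported here.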

Additional observations from a re-analysis of the deposited data

How the results depend on the processing

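The count of members higher at 1 week was 2, and it was 1 at a limit of 0.2% (17.2% of all genes), without cells of 3 or more thymocyte-marker UMIs (18.6%), without cells of under 0.5% mitochondrial RNA (18.4%) and as a mean over cells (22.3%), and 0 at a limit of 0.5% (16.1%) and in cortical clusters alone (27%). With 1 library left out it ranged from 1 to 6. Without 16-week replicate 2 it was 6 (27.6% of all genes), without 1-week replicate 1 it was 1 (29.5%) and without 16-week replicate 1 it was 1 (20.8%). TMM scaling gave 3 (19.6%), with Slc22a7 added. The log2 difference by age turned its sign in 17 of 135 values, for Tbata, Slc22a7, Cstb, Inmt, Aldh3b2, Amn and Neu2, none of which was called in the reported setting. The count for CD83 was 9, and 2 at a limit of 0.5%, and that for CD40 was 8, and 1 at that limit. Under the other alternatives they were 6 to 9 (3.32% to 6.01% of all genes) and 7 or 8 (4.31% to 8.18%), and with 1 library left out 9 and 8, where the share of all genes called rose to 14.6% and 15.1% for CD83 and to 16% and 17.5% for CD40. No direction turned for CD83 in 126 values, and Ppp1r27 turned for CD40 in 2. The median coefficient over 36 pairs was 0.147, and it was 0.129 at a limit of 0.2%, 0.130 at 0.5%, 0.110 without thymocyte-marker cells, 0.155 without cells low in mitochondrial RNA, 0.140 in cortical clusters, 0.127 at 3000 UMIs, 0.311 without thinning and 0.160 as Pearson's coefficient of log2(count + 1), and 0.143 to 0.151 by library. The causes were not tested. The alternatives on mitochondrial RNA, cortical clusters and shared barcodes were chosen after seeing the data. No paired analysis was possible because the results come from no test and each age is 1 pool.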

Other observations

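Of 5 clusters with cortical markers, 3 had Tbata among their 10 leading genes, and they differed in depth. The cluster led by Isg20, Ccl25 and Tbata held 383 cells with a median of 44756 UMIs, 9 and 37 of the cells being of 16-week replicates 1 and 2. A cluster of 233 cells led by Tbata, Ccl25 and Cstb held a median of 2400 UMIs. A further cluster led by Isg20 and Ccl25 held 113 cells, 105 of them from 1-week replicate 1, so it was nearly that of 1 library.

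Mitochondrial messenger RNA differed between the wells of 1 pool. In 1-week cTEC mt-Atp6 was at 833 and 1972 CPM, mt-Co2 at 444 and 1108 and mt-Co3 at 641 and 1461, whereas the ribosomal mt-Rnr2 was at 4701 and 4781.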
